A study of Mus musculus with 148 samples.

Results

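The comparison described here was between enterocytes of segment 4 of the small intestine from mice given lactose-containing milk (LAC+, 7 samples) and from mice given lactose-free milk (lac-, 7 samples). The sample labels call segment 4 proximal jejunum, while the study's text counts segments 3 to 5 as jejunum and segment 3 as its proximal part. These 14 samples were chosen by their segment and milk labels from the 148 samples of the series, which also covers P60 adults, P6 infants and the same milk treatments in segments 1, 3, 7 and 8. All mice were wild-type, of a strain spelled C57BL/6MCrl in the sample labels and C57BL/6NCrl in the growth protocol. They drank milk in place of water from postnatal day 30 for 60 days and were sampled at postnatal day 90. Both milks were 2% milks, of different brands, and sucrose was added to the lactose-containing milk only, so lactose, brand and added sucrose cannot be told apart as parts of the treatment. Adult mice were housed with littermates and the labels do not give cages or litters. Bisulfite sequencing of padlock probe captures gave, for each cytosine and strand, the reads that kept a C (modified) and the reads that did not. DNA modification is the share of modified reads in percent, used for CpGs with more than 30 reads, and it does not separate methylation from other bisulfite-resistant modifications. The enterocyte label could not be set against expression markers, since DNA alone was measured.

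*Lct* encodes lactase, the brush border enzyme that splits milk lactose into glucose and galactose, and its transcription in the gut is highest in the jejunum and falls after weaning in most mammals. The neighbouring gene *Mcm6* encodes a subunit of the replicative helicase, and its introns hold an enhancer of the human lactase gene in which lactase persistence variants lie. Modified CpGs at promoters and enhancers are often found where a gene is less active, and enterocytes are renewed from crypt stem cells within days. The question put by the design was whether prolonged lactose intake altered DNA modification at this locus in the jejunum, where lactase is normally abundant.

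No CpG of the *Lct*–*Mcm6* locus passed the threshold between the milk treatments, and no exon, intron or flanking stretch did. The largest differences of region means lay in *Mcm6* introns 1, 3 and 13 and *Lct* intron 2, and all 4 were smaller without 2 lac- libraries sequenced on another lane. Without those libraries the mean difference over the locus was -0.06 percentage points. Outside the locus, the imprinted target upstream of *H19* was 1.68 percentage points higher in LAC+ mice, a difference past the threshold with all samples and just short of it on lane 3.

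File names placed all 7 LAC+ libraries and lac- replicates 1, 2, 3, 6 and 7 on lane 3 and lac- replicates 4 and 5 on lane 5. The 12 lane 3 files were marked as merged and the 2 lane 5 files were not, and what was merged is not given in the sources used here. The lane 5 libraries held 27236687 and 27797487 cytosine calls over the locus (1 call for each read at each cytosine, CpG or not), against 54562470 to 58585298 in the lane 3 lac- libraries and 54527519 to 98001609 in the LAC+ libraries. LAC+ replicates 2 and 7 had depths like those of the lac- libraries, and the other 5 LAC+ libraries had at least 95160820 calls. Cytosines outside CpGs, a guide to incomplete conversion, were modified at 0.68 to 0.87% on average over the locus in all 14 libraries. Outside the locus their average varied more, from 0.45 to 3.19%, with medians over cytosines of 0.33 to 0.42% and 12 to 357 cytosines above 20% in a library. Across 658 locus CpGs, lane 3 libraries differed from each other by 1.17 to 2.86 percentage points per CpG on average. They differed from the lane 5 libraries by 2.86 to 5.12 points. Within lane 3, pairs of libraries from different milk treatments (median 1.88 points, 35 pairs) lay no further apart than pairs from the same treatment (median 1.94 points, 31 pairs). Since lane 5 held lac- samples alone, lane, file merging and the animals concerned cannot be told apart, and the regions, targets and named CpGs are given with all samples and for lane 3 only (7 LAC+ and 5 lac-).

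The stretches on which the locus results turn are printed from the GRCm38 reference on the minus strand, which both genes use, 5′ to 3′. Capitals mark the CpGs measured in all 14 samples. *Mcm6* exon 13 is coding sequence, and its CpGs lie at its 3′ end beside the start of intron 13. In the *Lct* intron 2 and *Mcm6* intron 1 stretches the lane 5 libraries lay below all others, *Lct* exon 12 is where LAC+ replicates 1, 3 and 4 lay below all others, and *Mcm6* intron 14 had the lowest p-value of the locus features.
Mcm6 exon 13, chr1:128338106-128338207: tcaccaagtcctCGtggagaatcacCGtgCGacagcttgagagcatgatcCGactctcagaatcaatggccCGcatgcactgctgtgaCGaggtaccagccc
Lct intron 2, chr1:128314507-128314768: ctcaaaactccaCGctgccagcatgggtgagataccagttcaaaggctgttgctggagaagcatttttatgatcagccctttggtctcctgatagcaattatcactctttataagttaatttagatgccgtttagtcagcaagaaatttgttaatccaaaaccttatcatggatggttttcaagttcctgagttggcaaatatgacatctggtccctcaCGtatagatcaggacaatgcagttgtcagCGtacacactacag
Mcm6 intron 1, chr1:128358471-128358619: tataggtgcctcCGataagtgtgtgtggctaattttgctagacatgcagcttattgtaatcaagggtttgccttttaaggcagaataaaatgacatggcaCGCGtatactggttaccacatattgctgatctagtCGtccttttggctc
Lct exon 12, chr1:128293620-128293745: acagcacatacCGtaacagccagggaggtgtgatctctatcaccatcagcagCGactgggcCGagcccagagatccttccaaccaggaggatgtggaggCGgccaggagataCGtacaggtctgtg
Mcm6 intron 14, chr1:128335216-128335376: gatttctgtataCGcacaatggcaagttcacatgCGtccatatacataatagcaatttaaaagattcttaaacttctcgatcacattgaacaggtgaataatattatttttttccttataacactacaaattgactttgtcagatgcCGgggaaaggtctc

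CpGs were tested one by one and by strand with a quasi-binomial F test across the samples, after leaving out CpGs modified above 90% on average. Of 388 locus CpGs tested, 0 (0%) passed Bonferroni-adjusted p of 0.01, 0 passed Benjamini-Hochberg adjustment at 0.05, and 23 (5.93%) had an unadjusted p under 0.05, 7 higher and 16 lower in LAC+. On lane 3 alone, 0 of 392 CpGs passed (0%) and 22 (5.61%) had an unadjusted p under 0.05. The limma test on log2 odds also called 0 locus CpGs, with 45 at an unadjusted p under 0.05. Over all tested CpGs, 186 were higher in LAC+, with a median difference of -0.05 percentage points. The median size of a difference, without its sign, was 0.99 points, against a median SD between mice of 2.12 points in lac- and 1.75 points in LAC+. In all, 40 of the 388 CpGs differed by more than 5 points.

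The 40 CpGs with differences above 5 points were not spread evenly. *Lct* intron 2 held 8 of them among 14 tested CpGs. *Mcm6* exon 13, *Mcm6* intron 13 and *Mcm6* intron 1 held 5 each, among 12, 7 and 9 tested, beside 40 of 388 over the locus. Of the 40, 35 were higher in LAC+. Their median size was 7.59 points with all samples and 2.86 points on lane 3, where 7 of the 40 still exceeded 5 points. The plot of differences along the locus shows groups of tall points over *Lct* intron 2, *Mcm6* exon 13 and *Mcm6* intron 1 in the upper panel. Their heights are lower in the lane 3 panel. The largest differences, 14.4 points each, were at 2 CpG and strand positions between *Lct* and *Mcm6*, a stretch with too few covered CpGs for the comparison of regions. Differences reached 13.4 points in *Mcm6* intron 13 and in *Mcm6* intron 3, 13.2 in *Lct* intron 2, 11.1 in *Mcm6* intron 1 and 9.51 in *Mcm6* exon 13.

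**Figure D1:**
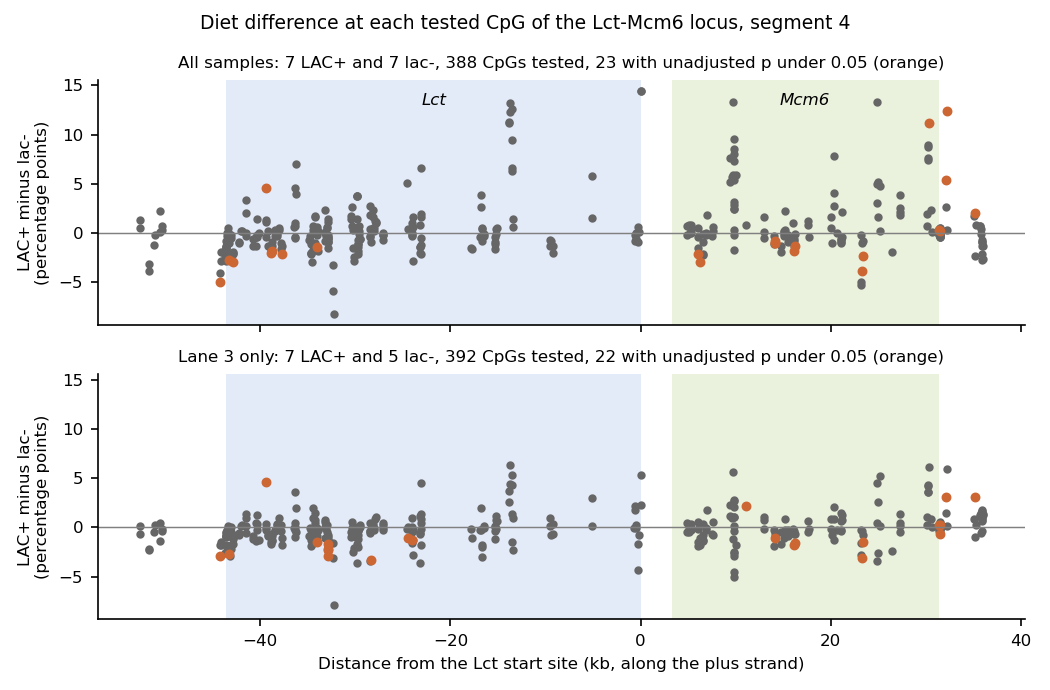
Difference in DNA modification (LAC+ minus lac-, percentage points) at each tested CpG of the locus against distance from the *Lct* start site in kb, with all samples (upper panel) and lane 3 only (lower panel); shaded spans are the 2 genes and orange points have an unadjusted p under 0.05. The highest point with all samples is 14.4 points, between *Lct* and *Mcm6*, and the highest on lane 3 is another CpG, at 6.31 points in *Lct* intron 2.

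The CpG with the lowest p-value lay at chr1:128359746 on the plus strand, 5′ of *Mcm6* between this gene and *Dars*, which encodes aspartyl-tRNA synthetase. Its modification was 0.66% ± 0.14 (SD, n = 7) in lac- and 1.00% ± 0.14 (n = 7) in LAC+, at a median depth of 4639 reads (Bonferroni-adjusted p = 0.44, quasi-binomial F test across all CpGs). These levels are close to the 0.68 to 0.87% average of cytosines outside CpGs over the locus, the guide to incomplete conversion. The part of incomplete conversion in them was not tested. The lac- samples ran from 0.48 to 0.84% and the LAC+ samples from 0.77 to 1.19%, so the groups overlapped, and on lane 3 the difference was 0.30 points against 0.34 with all samples. The next CpG lay in *Lct* exon 17, the last exon, at chr1:128285020 (plus strand). It was 89.2% ± 0.33 in lac- and 86.5% ± 1.81 in LAC+ (adjusted p = 0.81), and on lane 3 the difference was -2.68 points. The third and the fourth, 128351677 and 128351641 on the plus strand, were in *Mcm6* exon 4 and were lower in LAC+ by 2.32 and 3.90 points with all samples and by 1.49 and 3.06 points on lane 3. They lie within one short stretch and are not independent measurements. The fifth, at 128284091 (plus strand) in the 3′ flank of *Lct*, was lower by 5.02 points with all samples and by 2.89 points on lane 3. The Bonferroni-adjusted p was 1 for these last 3 CpGs.

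Regions of the locus were compared by the mean modification of their CpGs in each sample with an exact two-sided permutation test over samples. This test can give no p below 0.00058 for 7 against 7 and none below 0.0013 for 5 against 7. Each exon, intron or flanking stretch with at least 3 CpGs covered in all 14 samples was used, and *Mcm6* exon 13 and intron 13 were also joined into 1 region, as the study did, for 60 regions in all. With all samples, 0 of 60 (0%) passed Benjamini-Hochberg adjustment at 0.05 and 9 (15%) had an unadjusted p under 0.05, 3 higher and 6 lower in LAC+. On lane 3, 0 of 60 passed (0%) and 5 (8.33%) had an unadjusted p under 0.05. Even at the lowest p possible for 5 against 7, a region on its own could not pass adjustment over 60. The 0 on lane 3 thus adds little to the result with all samples. The lowest adjusted p-values were 0.17 with all samples and 0.28 on lane 3.

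*Lct* exon 1, which holds the start of the gene, did not separate the milk treatments. Its 9 CpGs averaged 83.8% ± 1.98 in lac- (lowest 80.7, median 83.9, highest 86.3) and 83.4% ± 1.24 in LAC+ (81.8, 83.5 and 85.1). The difference of -0.39 points had a 95% interval of -2.33 to 1.55 (exact permutation p = 0.66). On lane 3 it was -0.49 points, with an interval of -2.23 to 1.25. Both lane 5 samples stood at the ends of the lac- range, at 86.3 and 80.7%. The CpG of lowest p in this exon, at 128328059, was 77.4% ± 8.45 in lac- and 76.5% ± 3.05 in LAC+. Its difference was -0.92 points with all samples and -4.31 points on lane 3, where lac- averaged 80.8% ± 5.32 (n = 5).

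*Lct* intron 2 was lower in the lane 5 libraries than in all others. Its 16 CpGs averaged 50.4% ± 6.01 in lac- (lowest 41.4, median 53.7, highest 54.8) and 55.5% ± 3.85 in LAC+ (50.2, 55.5 and 61.01). The lane 5 values were 41.4 and 41.9%, while the 5 lane 3 lac- samples lay within 52.7 to 54.8%, inside the LAC+ range. The difference was 5.15 points with all samples (interval -0.71 to 11.2, exact permutation p = 0.087, adjusted p = 0.36). It was 1.65 points on lane 3 (interval -2.39 to 5.65, exact permutation p = 0.38). LAC+ samples varied more than the lane 3 lac- samples here, with SDs of 3.85 and 0.76 points, a contrast that was not tested. In the printed stretch of this intron, 6 CpG and strand positions averaged 39.5% in the lane 3 lac- samples, 12.6% in the lane 5 samples and 42.98% in LAC+. The CpG of lowest p in the intron, at 128314931 on the minus strand, was 9.93% ± 1.52 in lac- and 11.4% ± 1.67 in LAC+, and the difference of 1.47 points was 0.92 points on lane 3.

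*Lct* intron 8 and *Lct* exon 12 lie further into the gene body. In intron 8, 4 CpGs averaged 72.95% ± 3.86 in lac- and 73.2% ± 2.50 in LAC+, a difference of 0.28 points (interval -3.52 to 4.12) that became -0.87 points on lane 3 (interval -4.65 to 2.92). At its CpG of lowest p, 128299820 on the minus strand, the difference was 1.82 points with all samples and -0.37 points on lane 3. In exon 12, which is coding, 5 CpGs averaged 82.7% ± 1.67 in lac- (lowest 80.8, median 82.3, highest 85.3) and 80.7% ± 2.26 in LAC+ (77.7, 81.3 and 83.3). LAC+ replicates 1, 3 and 4 were the 3 lowest of all samples and the other 4 LAC+ samples overlapped lac-. The difference was -2.01 points (interval -4.36 to 0.34, exact permutation p = 0.083) and -1.30 points on lane 3 (interval -3.88 to 1.31, exact permutation p = 0.27). The CpG of lowest p in this exon, at 128293692 on the plus strand, was lower in LAC+ by 2.03 points with all samples and by 1.91 points on lane 3.

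*Mcm6* exon 13 with intron 13, which holds a cluster the study singled out along the gut, was the most variable of the named regions. Its 19 CpGs averaged 55.4% ± 9.54 in lac- (lowest 37.6, median 56.3, highest 65.2) and 60.0% ± 5.12 in LAC+ (53.02, 58.7 and 67.4). The lane 5 samples, at 50.6 and 37.6%, were below every lane 3 sample, and the lane 3 lac- samples ran from 53.1 to 65.2%. The difference was 4.56 points with all samples (interval -4.01 to 13.8, exact permutation p = 0.31) and 0.02 points on lane 3 (interval -6.83 to 6.86, exact permutation p = 0.996). A shift of several points in either direction was thus within the interval of this comparison. At the CpG of lowest p there, 128337771 on the plus strand in intron 13, lac- averaged 76.5% ± 12.5 and LAC+ 84.1% ± 4.24, and on lane 3 the difference was 2.24 points.

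*Mcm6* intron 1 was the least modified of the 6 regions and was taken in the study as a control region. Its 9 CpGs averaged 15.7% ± 4.83 in lac- (lowest 7.87, median 17.7, highest 20.02) and 21.1% ± 4.43 in LAC+ (16.2, 20.3 and 28.2). The lane 5 samples had 7.87 and 9.67%, less than any lane 3 sample, and LAC+ replicates 1, 3 and 4 had the highest values. The difference of 5.44 points (interval -0.16 to 10.8, exact permutation p = 0.055) fell to 2.68 points on lane 3 (interval -1.80 to 7.40, exact permutation p = 0.24). Among lane 3 libraries of similar depth, which left LAC+ replicates 2 and 7 against 5 lac- samples, it was -0.14 points. The CpG of lowest p, at 128358607 on the minus strand, was 22.2% ± 8.68 in lac- and 33.3% ± 7.73 in LAC+ (Bonferroni-adjusted p = 1, quasi-binomial F test), 11.1 points apart with all samples and 6.17 points on lane 3. The plot of values by sample shows the lane 5 triangles below the other points in *Lct* intron 2, *Mcm6* intron 1 and *Mcm6* exon 13 with intron 13, and near the top in *Lct* exon 12.

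**Figure D2:**
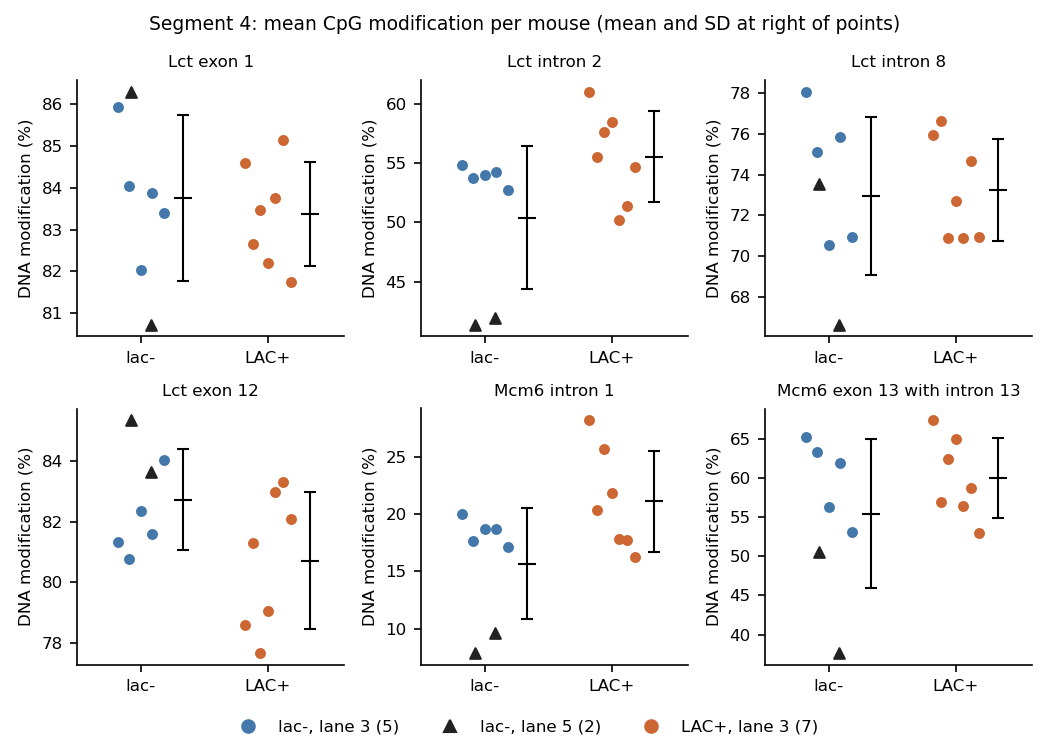
Mean DNA modification (%) of the CpGs of 6 locus regions in each segment 4 sample, by milk treatment; dots are lane 3 samples, triangles the 2 lane 5 lac- samples, and the bars at the right of each group give the mean and SD of its 7 samples. In *Lct* intron 2 the triangles sit at 41.4 and 41.9%, below all lane 3 samples, which start at 50.2%.

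**Figure D3:**
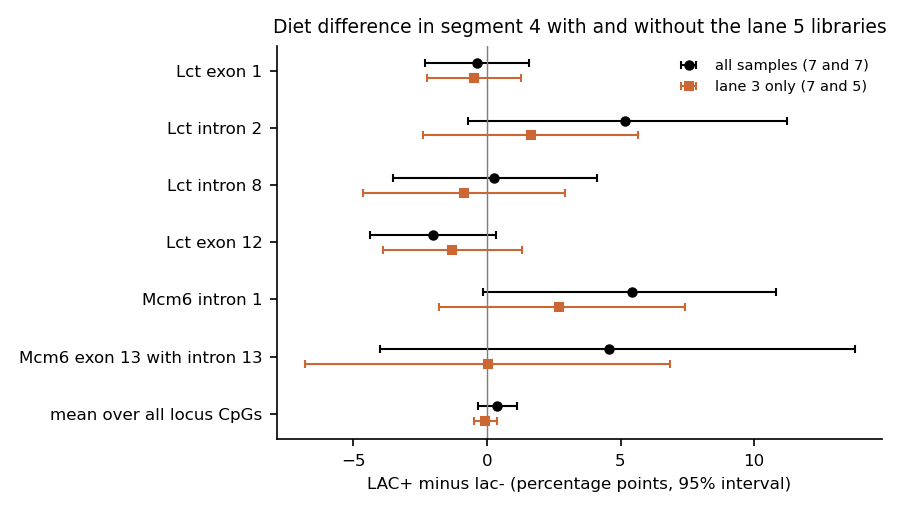
Difference in mean DNA modification (LAC+ minus lac-, percentage points) with its 95% interval for the 6 regions and for the mean over all covered locus CpGs, with all samples (black circles, 7 and 7) and lane 3 only (orange squares, 7 and 5). All intervals include 0, and the estimate for *Mcm6* exon 13 with intron 13 moves from 4.56 to 0.02 points.

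The 5 regions with the lowest p-values differed by 0.58 to 1.26 points. *Mcm6* intron 14, a short stretch of 6 CpG and strand positions, was 62.3% ± 0.59 in lac- (lowest 61.5, median 62.5, highest 63.1) and 63.6% ± 0.65 in LAC+ (62.8, 63.8 and 64.7). The difference was 1.26 points (interval 0.52 to 2.00, exact permutation p = 0.0029, adjusted p = 0.17) and 1.08 points on lane 3 (exact permutation p = 0.013, adjusted p = 0.28). When reads were pooled over its CpGs instead of averaging their percentages, the difference was -0.23 points. The stretch between *Mcm6* and *Dars* (38 CpGs) was 18.1% ± 0.45 in lac- and 18.7% ± 0.35 in LAC+, a difference of 0.64 points (adjusted p = 0.26 by the exact permutation test) and 0.39 points on lane 3. *Lct* exon 17, the *Lct* 3′ flank and *Mcm6* exon 9 were lower in LAC+ by 0.65, 0.68 and 0.58 points with all samples and by 0.55, 0.51 and 0.71 points on lane 3, none past adjustment. On lane 3 the lowest p belonged to *Lct* intron 9, at 73.2% ± 0.61 in lac- (n = 5) and 71.97% ± 0.44 in LAC+ (n = 7), a difference of -1.22 points (exact permutation p = 0.0063, adjusted p = 0.28). With all samples the difference in this intron was -0.23 points, since the lane 5 libraries stood at 69.8 and 69.6%.

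Both lane 5 libraries lay outside the whole range of the 12 lane 3 libraries in 29 of the 60 locus regions, below it in 21 and above it in 8. The largest gaps between lane 5 and lane 3 lac- means were -18.7 points in *Mcm6* intron 3, -16.4 in *Mcm6* exon 13, -14.98 in *Mcm6* intron 13 and -12.2 in *Lct* intron 2. The gap at the *Dars* 3′ end was 5.92 points upward. In *Mcm6* intron 3 the milk difference went from 5.63 points with all samples to 0.28 points on lane 3. Averaged over the locus, modification was 77.5% ± 0.79 in lac- and 77.9% ± 0.40 in LAC+ over 658 CpGs, a difference of 0.37 points (interval -0.32 to 1.14, exact permutation p = 0.31). On lane 3, over 669 CpGs, it was -0.06 points (interval -0.49 to 0.39, exact permutation p = 0.76).

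The CpGs whose modification changed along the P60 gut were then followed in segment 4. Such locus CpGs were found by the same F test across the 9 segments of P60 mice. It treated all 71 P60 samples as separate, more than the study used at P60, and did not model any sharing of a mouse. Of the 149 CpGs listed, 128 could be tested here and 0 were called. With all samples 72 were higher and 56 lower in LAC+, with a median difference of 0.29 points, beside -0.05 points over all 388 tested CpGs. On lane 3, 39 were higher and 89 lower, with a median of -0.49 points beside -0.21 points over the 392 CpGs tested there. The 19 gradient CpGs in *Mcm6* intron 12, exon 13 and intron 13 averaged 36.4, 40.6 and 80.6% in P60 segments 3, 4 and 9. Their median milk difference in segment 4 was 5.37 points with all samples and 0.14 points on lane 3. The 6 gradient CpGs of *Lct* intron 2 had median differences of 11.2 and 3.15 points, and the 4 tested in *Lct* exon 1 had 0.03 and -1.23 points.

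Several of these regions varied together from library to library within lane 3. Over the 12 lane 3 libraries, *Mcm6* intron 1 was set against 5 other regions and an imprinted target, 6 relations in all. *Mcm6* intron 1 and *Lct* intron 2 had Pearson r = 0.86 (permutation p = 4.0e-04, adjusted p = 0.0012) and Spearman rho = 0.78 (permutation p = 0.0038, adjusted p = 0.011). *Mcm6* intron 1 and *Lct* exon 12 had r = -0.85 (permutation p = 3.2e-04, adjusted p = 0.0012) and rho = -0.76 (permutation p = 0.0061, adjusted p = 0.012). With *Mcm6* exon 13 and intron 13, r was 0.69 (permutation p = 0.0088, adjusted p = 0.013) and rho 0.71 (permutation p = 0.013, adjusted p = 0.019). With the target at the start of *Kcnq1ot1*, a long RNA made from the paternal allele inside *Kcnq1*, r was -0.73 (permutation p = 0.0070, adjusted p = 0.013) and rho -0.79 (permutation p = 0.0032, adjusted p = 0.011). Leaving out LAC+ replicates 1 and 3, the 2 libraries farthest from the median, gave r = 0.70, -0.73, 0.66 and -0.69 in the same order. For *Lct* exon 1 and *Lct* intron 8, r was 0.18 and 0.20 and rho 0.18 and 0.28, none past adjustment. Within the 7 LAC+ libraries alone r was 0.84 for *Lct* intron 2, -0.89 for *Lct* exon 12 and -0.86 for the *Kcnq1ot1* target, and the 5 lac- libraries were too few for a value. The lane 5 libraries extended the same pattern, with the *Kcnq1ot1* target at 86.5 and 83.4% against 59.5 to 74.3% on lane 3. The sources of this common variation, library preparation, lane and depth among them, were not tested.

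**Figure D4:**
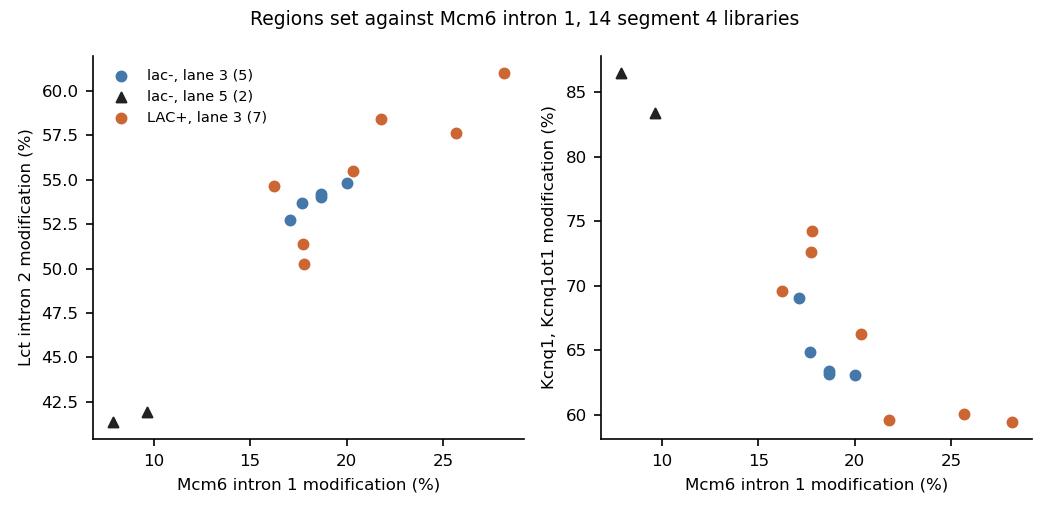
DNA modification (%) of *Lct* intron 2 (left) and of the *Kcnq1ot1* target (right) against that of *Mcm6* intron 1 in the 14 segment 4 libraries; each point is 1 library, and triangles are the lane 5 lac- libraries. Within lane 3 the 12 points rise on the left (r = 0.86) and fall on the right (r = -0.73).

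The milk difference in segment 4 was set against that in segments 1, 3, 7 and 8 in the 6 regions by shuffling milk labels within segments. None of the 24 comparisons passed adjustment (lowest permutation p = 0.073, lowest adjusted p = 0.84), and 0 had an unadjusted p under 0.05. In *Mcm6* exon 13 with intron 13 the difference was 4.56 points here and 5.15, 8.29, 0.47 and 0.52 points for segments 1, 3, 7 and 8. In *Mcm6* intron 1 it was 5.44 points here and 2.52, 5.57, 5.17 and 5.73 points there. In *Lct* exon 12 it was -2.01 points here and -0.49, -3.35, -3.90 and -3.38 points there. *Lct* intron 2 had 5.15 points here and 3.84, 4.69, 2.53 and 1.91 points there. *Lct* exon 1 had -0.39 points here and -0.14, -0.66, -1.66 and -1.72 points there. *Lct* intron 8, over the CpGs covered in both segments, had 0.23 points here and 1.41, 0.43, -0.58 and -0.68 points there. Lanes were uneven across milk treatments in these segments too. Lane 3 also held all LAC+ and 4 lac- samples of segment 1. There the differences in segment 1 were 1.96 points in *Mcm6* exon 13 with intron 13, 0.44 in *Mcm6* intron 1, 0.93 in *Lct* intron 2 and -1.16 in *Lct* exon 12. Over all 67 P90 samples, *Mcm6* intron 1 ran from 13.2 to 28.2% in the 41 files marked as merged and from 7.07 to 25.5% in the 26 others. Merging was uneven across milk treatments, so these ranges cannot separate merging from milk. In segment 8, 6 LAC+ files and 1 lac- file were merged, while 1 LAC+ file and 6 lac- files were not. The value of 25.5% belonged to 1 LAC+ sample of segment 3, and outside that segment the highest unmerged value was 12.2%. In unmerged files *Lct* intron 2 ran from 39.2 to 64.4% and the *Kcnq1ot1* target from 45.9 to 88.2%. Both ranges held the whole merged range. The 64.4 and 45.9% were also in LAC+ files of segment 3. Merged lac- files lay above the other lac- files in *Lct* intron 2 in segments 1, 3 and 4. In segments 7 and 8 the merged lac- file lay within their range. In *Mcm6* intron 1 merged lac- files lay above, and in the *Kcnq1ot1* target below, the other lac- files in every segment. All segment 4 and segment 1 files on lane 3 were merged, and none on lane 5 was.

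Outside the locus, 876 CpGs of other autosomal targets, most of them at imprinted regions, were tested in the same way. In an imprinted region 1 parental allele is methylated, so bulk values near the middle of the scale are usual. Of these CpGs, 0 (0%) passed the Bonferroni threshold, 0 passed Benjamini-Hochberg adjustment at 0.05, and 99 (11.3%) had an unadjusted p under 0.05, 82 higher and 17 lower in LAC+. On lane 3 the counts were 0 (0%) and 77 (8.79%), of which 66 were higher. The limma test called 0, with 69 at an unadjusted p under 0.05. The lowest p belonged to a CpG at chr12:109526658 (minus strand) in the target 5′ of *Meg3*, a maternally expressed long RNA. It was 82.6% ± 6.13 in lac- and 70.1% ± 5.80 in LAC+ at a median depth of 211.5 reads (Bonferroni-adjusted p = 1), and on lane 3 the difference was -10.3 points. The next 2, chr11:22973773 and chr11:22973823 on the plus strand, were higher in LAC+ by 1.44 and 2.84 points (1.37 and 2.98 points on lane 3) and lie in the target at *Zrsr1*, a paternally expressed gene inside an intron of *Commd1*.

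Among the 20 targets with at least 3 CpGs, 1 (5%) passed Benjamini-Hochberg adjustment at 0.05 with all samples and 0 (0%) on lane 3. With all samples 4 of 20 (20%) had an unadjusted p under 0.05, all higher in LAC+, and on lane 3 3 of 20 did (15%). The target that passed lies 1.94 to 4.12 kb 5′ of the start of *H19*, a maternally expressed long RNA. This imprinting control region is methylated on the paternal allele, and on the maternal allele it binds the insulator protein CTCF, which keeps *Igf2* from its enhancers. The stretch of the target with the most measured CpGs is printed on the minus strand, that of *H19*, with the measured CpGs in capitals.
H19 target, chr7:142580250-142580513: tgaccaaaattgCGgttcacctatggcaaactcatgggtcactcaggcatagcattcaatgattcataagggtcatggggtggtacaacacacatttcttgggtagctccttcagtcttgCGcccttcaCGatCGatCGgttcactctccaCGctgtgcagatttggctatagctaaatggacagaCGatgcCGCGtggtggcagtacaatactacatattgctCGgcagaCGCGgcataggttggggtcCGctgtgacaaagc

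Over 64 CpGs at chr7:142580084-142582260, the *H19* target was 37.6% ± 0.77 in lac- (lowest 36.6, median 37.6, highest 38.6) and 39.2% ± 0.53 in LAC+ (38.2, 39.2 and 39.8). LAC+ replicate 7 was the only LAC+ sample within the lac- range, and the other 6 LAC+ samples were above all 7 lac- samples. The difference was 1.68 points (interval 0.90 to 2.45, exact permutation p = 0.0012, adjusted p = 0.023). Leaving out any 1 of LAC+ replicates 1, 2, 3, 5 and 6 ended the call (exact adjusted p = 0.058), with differences of 1.58 to 1.72 points. On lane 3 it was 1.63 points (interval 0.80 to 2.44, exact permutation p = 0.0025, adjusted p = 0.051). The lane 5 samples, at 36.7 and 38.2%, lay within the range of the lane 3 lac- samples. Cytosines outside CpGs in the target were modified at 0.33 to 0.46% on average in all 14 libraries (0.34 to 0.43% in lac- and 0.33 to 0.46% in LAC+), and none was above 20%. Depth moved with milk treatment on lane 3, and among libraries of similar depth, LAC+ replicates 2 and 7 had 39.5 and 38.2% against a mean of 37.6% in the 5 lac- samples, a difference of 1.25 points (exact permutation p = 0.14).

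The difference was not even along the target. CpGs on the plus strand between 142580262 and 142580392, at a median depth of 6897 reads, were 42.5% ± 0.97 in lac- and 44.3% ± 1.89 in LAC+, and all 12 were higher in LAC+, by 1.51 to 2.15 points. Their mean difference was 1.88 points with all samples and 2.18 points on lane 3. These CpGs are read together and share molecules. On the minus strand of the same part, 5 CpGs between 142580362 and 142580393 were 21.4% ± 3.58 in lac- and 23.4% ± 2.25 in LAC+. Their difference was 1.91 points with all samples and -0.08 points on lane 3. Minus-strand CpGs between 142580914 and 142580959 were higher by 2.57 points (3.14 on lane 3). The largest shift, 7.14 points (6.68 on lane 3), was in 5 minus-strand CpGs between 142581387 and 142581456 that had a median of 120 reads. Toward the far end of the target, 11 CpGs between 142582021 and 142582260 differed by 0.32 points (1.18 on lane 3) and 7 between 142581663 and 142581802 by -0.18 points (-0.77 on lane 3). Those 7 were little modified, at 6.31% ± 1.25 in lac- and 6.13% ± 1.01 in LAC+, which leaves little room for a difference. Requiring more than 100 reads lowered the target's difference to 1.18 points (adjusted p = 0.051).

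The motif CGNGGNGGC, part of the core at which CTCF binds, was searched on both strands. It was found 3 times in the 2177 bases of the target, each time on the minus strand and with measured CpGs inside it. The motif is short and common, and 3238 of 32851 RefSeq promoter windows of 300 bases in GRCm38 (9.86%) hold it. The copy at chr7:142580311-142580319 lies in the printed stretch. Its measured CpG was 42.4% ± 1.08 in lac- and 43.9% ± 1.36 in LAC+, 1.51 points apart with all samples and 1.84 points on lane 3. The CpGs in the copies at 142580766-142580774 and 142582036-142582044 differed by 1.40 and -0.29 points with all samples and by 1.23 and 0.13 points on lane 3. These differences come from the same samples and contrast as the target mean and add no independent evidence.

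In the other P90 segments the same target did not differ in one direction. LAC+ minus lac- was -0.53, -1.61, -1.13 and 0.31 points for segments 1, 3, 7 and 8. On lane 3, with 4 lac- samples, the difference in segment 1 was -1.12 points (exact permutation p = 0.079). The lowest exact permutation p was 0.033, for segment 3 (adjusted p = 0.34 over 20 comparisons of 5 targets in 4 segments). The *H19* target was singled out by its difference in segment 4, so the comparison of segments was chosen after its values were seen. Against segment 3, the difference in segment 4 over the CpGs covered in both was larger by 2.79 points (permutation p = 9.9e-04, adjusted p = 0.020 over 20 tests). Against segments 1, 7 and 8 the adjusted p-values were 0.077, 0.11 and 0.47 by the same permutation test.

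The next targets were higher in LAC+ by 1 to 2 points and did not pass adjustment. The *Zrsr1* target (18 CpGs) was 48.01% ± 0.74 in lac- and 49.01% ± 0.44 in LAC+, a difference of 1.01 points (exact permutation p = 0.0058, adjusted p = 0.054). On lane 3 over the same 18 CpGs the difference was 0.65 points, and over the 20 CpGs covered there it was -0.24 points. The target of *Mest*, a paternally expressed gene of the hydrolase fold family, was 45.4% ± 1.09 in lac- and 46.99% ± 1.02 in LAC+ (difference 1.63 points, exact permutation p = 0.0082, adjusted p = 0.054). On lane 3 it differed by 1.28 points (adjusted p = 0.25 by the same exact test). The target at *Peg3* and *Usp29*, which are paternally expressed, was 48.9% ± 0.91 in lac- and 50.1% ± 0.89 in LAC+ (adjusted p = 0.11, exact permutation test), and the difference of 1.19 points was 0.78 points on lane 3 (exact permutation p = 0.11). The target at *Gnas* and its antisense RNA *Nespas* was 47.4% ± 1.22 in lac- and 49.1% ± 1.65 in LAC+ (adjusted p = 0.22, exact permutation test), and the difference was 2.10 points on lane 3. In these 4 targets some libraries held stretches of cytosines outside CpGs modified above 20%, up to 30 cytosines at *Zrsr1*, 65 at *Mest*, 96 at *Peg3* and 68 at *Gnas*, while the lowest count was 0 at each. The part of these stretches in the CpG values was not tested. The *Kcnq1ot1* target had the widest spread, 70.5% ± 10.1 in lac- and 65.99% ± 6.37 in LAC+, with the lane 5 samples 20.2 points above the lane 3 lac- mean.

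**Figure D5:**
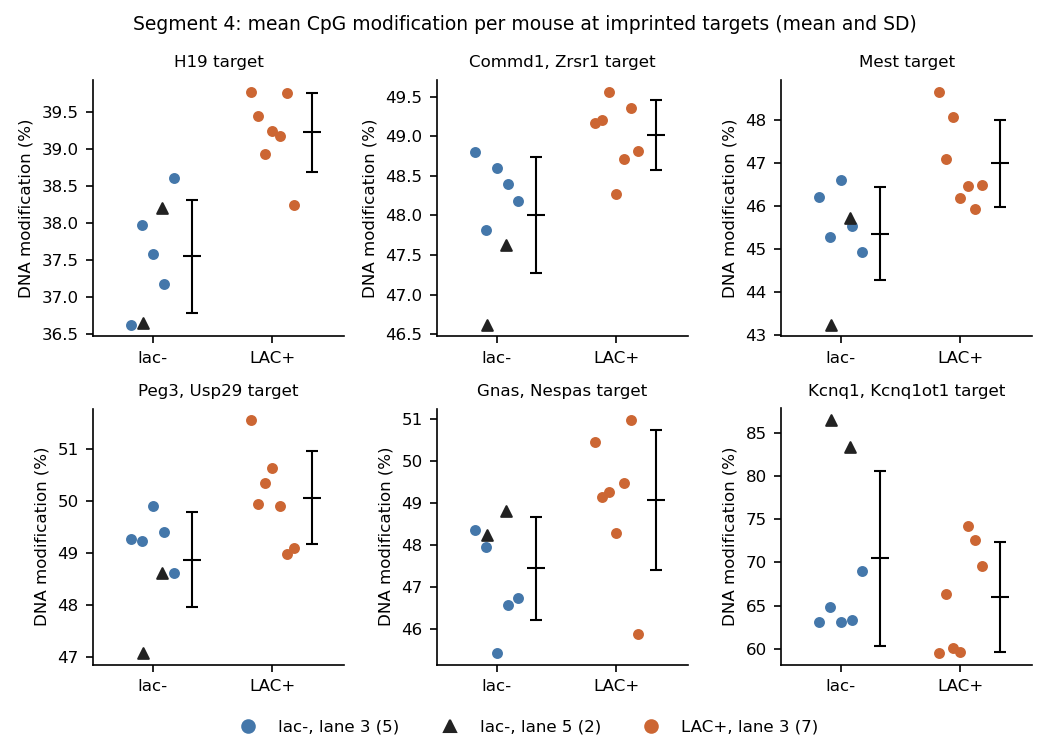
Mean DNA modification (%) of the CpGs of 6 imprinted targets outside the locus in each segment 4 sample, by milk treatment; dots are lane 3 samples, triangles the 2 lane 5 lac- samples, and bars give the mean and SD of each group of 7. At the *H19* target 6 of 7 LAC+ samples lie above the highest lac- sample, 38.6%.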

How the data were processed

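The deposited files hold, per the labels and the study's methods, bisulfite padlock probe libraries of villus enterocytes from 148 samples. The authors trimmed reads with Trimmomatic 0.32 and mapped them with Bismark to GRCm38/mm10. The authors deposited counts per cytosine and strand: columns 4 and 5 of each file are raw counts of modified and unmodified reads, without normalization. Whether reads sharing a degenerate probe tag were collapsed is not given in the sources used here, so read counts are not counts of independent molecules. The first line of nearly every file fuses a data row into 1 field and was skipped. It was never a CpG. All 3762 CpG rows fall on a CG of the GRCm38 reference.

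Percent modification was computed for CpGs with more than 30 reads, and each strand was kept apart. Features came from GENCODE vM21 (transcripts Lct-201 and Mcm6-201). CpGs no more than 10 kb apart outside the locus formed a target, named by the genes it overlaps or the nearest named gene. A CpG was tested if 3 or more samples per group passed the read minimum and its mean was not above 90%, with a quasi-binomial F test with 1 dispersion per CpG, floored at 1. Of 1102 locus CpG rows, 672 had that coverage and 284 of these were above 90%. Bonferroni adjustment was made within the locus (388 CpGs) and within the other autosomal CpGs (876), at 0.01. Regions and targets were compared by exact two-sided permutation of the milk labels over samples (3432 splits for 7 against 7, 792 for 5 against 7), with 95% intervals from inverting the test and Benjamini-Hochberg adjustment at 0.05. Differences between segments used 100000 shuffles, as did the correlations. The samples are labelled as separate replicates, and where they share a litter or cage the p-values measure only the spread between these samples. The tests were checked on simulated counts. Software was Python 3.11.15, NumPy 2.4.6, SciPy 1.17.1, pandas 2.3.3, Matplotlib 3.10.9, R 4.3.3 and limma 3.58.1.

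The CpGs named are the 5 of lowest p in the locus, the 3 of lowest p elsewhere and the one of lowest p in each of 6 regions (*Lct* exons 1 and 12, *Lct* introns 2 and 8, *Mcm6* intron 1 and *Mcm6* exon 13 with intron 13). The regions named are those 6 and the 5 features and 5 targets of lowest p. The samples, regions and lists were chosen with earlier results of these data known. Alternatives were other read minimums, lane 3 only, lane as a covariate, a replicate block, leaving out each sample, other adjustments, no removal above 90%, limma, strands added, pooled reads and regions without CpGs above 90%. Libraries of similar depth, the other *H19* comparisons, the correlations, the merged files and the cytosines outside CpGs by target were added after the data were seen.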

Additional observations from a re-analysis of the deposited data

Results flagged for a closer look

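The minus-strand CpG at chr12:109526658 near *Meg3*, with the lowest p outside the locus, had 1 sample far from the others in each group. LAC+ replicate 2 had 58.1% and lac- replicate 4, a lane 5 library, had 95%. Of 62 groups of 7 looked at in this way these 2 stood out, and chance alone gives about 1 in 20. On lane 3 the difference at this CpG was -10.3 points (Bonferroni-adjusted p = 1, quasi-binomial F test), against -12.5 points with all samples.

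At the *H19* target the milk difference in segment 4 exceeded that in segment 3 by 2.79 percentage points (permutation of milk labels within segments, adjusted p = 0.020 over 20 tests). Over the CpGs covered in both segments it was 1.18 points in segment 4 and -1.61 points in segment 3. The target was chosen by its difference in segment 4, and lanes were uneven across the milk treatments of segment 3.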

How the results depend on the processing

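Counts of called CpGs and of called locus features were 0 with all samples and under every alternative run. The count of called targets was 1 with all samples, 2 with more than 10 reads, and 0 on lane 3, under the replicate block and among lane 3 libraries of similar depth. The block over 7 pairs can give no p below 0.016 and 2 against 5 samples none below 0.048, so after adjustment these settings could hardly give a call for targets or features and their 0 says nothing of stability. On lane 3, 5 against 7 can give no p below 0.0013, and a locus feature on its own could not pass adjustment there. The count of called targets ranged from 0 to 3 when each sample was left out in turn. Without lac- replicate 3 it was 3, without lac- replicate 1 or LAC+ replicates 4 or 7 it was 2, and without LAC+ replicates 1, 2, 3, 5 or 6 it was 0. With 1 sample fewer the *H19* difference was 1.52 to 1.85 points and its exact adjusted p 0.023 to 0.058. With reads pooled or more than 100 reads required, the *H19* target lost its call (adjusted p = 0.052 and 0.051 by exact permutation) and the *Zrsr1* target gained one (exact adjusted p = 0.023 in both). Under the replicate block, a sign-flip test over 7 pairs, the *H19* difference of 1.68 points had an exact adjusted p = 0.16, and the block changed no other call. The labels do not say whether same-numbered samples share more than a number. Deviations of same-numbered samples from the group means correlated at -0.75 to 0.70, with a mean of 0.07 against -0.01 for other numbers. Of 14 samples, 4 correlated best with their own number, and these values cannot tell whether the samples are paired.

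Directions changed in these cases, none of them called. The mean over all locus CpGs was -0.064 points on lane 3 and -0.29 at similar depth. On lane 3, *Lct* intron 8 was -0.87, the *Zrsr1* target -0.24, the CpG at 128299820 in *Lct* intron 8 -0.37, and *Lct* exon 1 in segment 4 exceeded segment 1 by 0.037 points. At similar depth, *Lct* intron 8 was -0.33, *Mcm6* intron 1 -0.14, *Mcm6* exon 13 with intron 13 -4.96 and the *Zrsr1* target -0.59 points. With pooled reads *Mcm6* intron 14 was -0.23 points, and *Lct* intron 8 in segment 4 exceeded segment 3 by 1.19 points. With each sample left out, *Lct* intron 8 ranged from -0.78 to 1.13, *Lct* exon 1 from -0.90 to 0.032 and the CpG at 128328059 from -3.59 to 0.70 points. The causes were not tested. For regions, lane as a covariate gives the lane 3 difference, as lane 5 held lac- samples alone. Depth was uneven, with medians of 120 to 6897 reads per CpG among stretches of the *H19* target alone, and 7 samples a group left intervals as wide as -4.01 to 13.8 points (*Mcm6* exon 13 with intron 13).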
